A study of Homo sapiens with 12 samples.

Results

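SCUBE3 and the core genes of transforming growth factor beta (TGF-beta) signalling were examined in U251-APP cells that lack one of 2 binding sites of the chromatin protein CTCF. The 8 genes named for this were SCUBE3, TGFB1, TGFB2, TGFBR1, TGFBR2, SMAD3, SMAD7 and TGFBI, and they were selected on the measured values of SCUBE3, which lay far below wild type in both knockouts. Of these 8, 7 had a row among the 11178 genes of the deposited table, and all 7 passed the filter on low values that left 11128 genes for testing; TGFB2 was not analysed here. U251 is a human glioblastoma line of astrocytic origin, and every library came from a derivative that stably expresses the amyloid precursor protein APP with the changes K670N and M671L, as one label has it, whereas another names only M671L. The wild-type group kept both sites. In the CTCF-A KO and CTCF-B KO groups a pair of guide RNAs and Cas9 had removed the site of that name, and single-cell clones were picked. Each group had 4 libraries of total RNA. The labels do not tell whether the 4 libraries of a knockout were several clones or several cultures of 1 clone, nor whether wild type was cloned, so an effect of a site and of a clone cannot be told apart and each p-value reflects spread between libraries that may be only technical.

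TGF-beta is secreted in a latent complex and is released by proteases and integrins before it can bind. It then joins the type II receptor TGFBR2, which phosphorylates the type I receptor TGFBR1, and TGFBR1 phosphorylates SMAD2 and SMAD3, which enter the nucleus with SMAD4 and change transcription. SMAD7 is an inhibitory SMAD that is itself a target of the pathway, and TGFBI encodes a secreted matrix protein named for its induction by TGF-beta. SCUBE3 is a secreted protein with EGF-like repeats and a CUB domain, described as a ligand of the type II receptor. In gliomas the pathway is known for its part in invasion and in mesenchymal gene expression.

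TGFBR2 and SMAD3 are shown first by sequence, because these genes of the receptor-to-SMAD chain moved in opposite directions in CTCF-A KO and their upstream windows hold no annotated exon. Each line gives the 250 bases before the start listed first by RefSeq, 5′ to 3′ on the gene's strand, build GRCh38.p14. The TGFBR2 window is chr3:30606106-30606355 and the SMAD3 window chr15:67065352-67065601, both on the plus strand. The latter lies inside the SMAD3 gene as drawn by GENCODE release 29, outside its exons. Capitals mark the SMAD-binding words CAGAC and GGCGCC on either strand.
TGFBR2: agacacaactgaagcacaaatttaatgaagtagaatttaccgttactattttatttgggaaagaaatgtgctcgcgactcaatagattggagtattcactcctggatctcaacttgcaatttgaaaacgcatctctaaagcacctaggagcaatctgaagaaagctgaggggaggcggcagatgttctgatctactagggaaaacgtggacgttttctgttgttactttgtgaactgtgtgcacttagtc
SMAD3: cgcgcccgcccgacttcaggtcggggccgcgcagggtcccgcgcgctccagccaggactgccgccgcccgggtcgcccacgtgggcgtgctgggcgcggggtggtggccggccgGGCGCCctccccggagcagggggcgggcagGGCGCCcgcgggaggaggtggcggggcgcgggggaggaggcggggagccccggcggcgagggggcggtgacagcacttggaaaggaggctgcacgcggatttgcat
The SMAD3 window held 2 matches to GGCGCC and none to CAGAC, and the TGFBR2 window held neither. Of 27305 promoter windows of the same length, 37.8% held CAGAC, 16.1% held GGCGCC and 3.05% held GGCGCC at least 2 times. The palindrome GTCTAGAC, which contains neither of the other words, was held by 0.176% and was found in no window of these genes. Such a match is a description of letters and not a bound site.

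Values are normalized expression on the log2 scale as the authors deposited them; 1 unit is a doubling. A difference is the mean of one group minus the mean of another, given with its standard error from limma, a linear model fitted to all genes, with 4 libraries in each group. Adjusted p-values are limma's, two-sided, with Benjamini-Hochberg adjustment over the 11128 genes, and a gene was called at 0.05. In RNA from whole cultures, fewer cells of a kind and less RNA per cell cannot be told apart.

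SCUBE3 (ENSG00000146197, GRCh38 chromosome 6, 35214419 to 35253079, plus strand) had its highest values in wild type, lower values in CTCF-A KO and its lowest in CTCF-B KO. The 4 wild-type libraries stood at 10.61, 10.40, 10.01 and 10.42, with a mean of 10.36 ± 0.25 (SD, n = 4). CTCF-A KO stood at 8.39, 8.04, 8.13 and 8.21, with a mean of 8.19 ± 0.15 (SD, n = 4). CTCF-B KO stood at 7.02, 7.03, 7.0 and 7.13, with a mean of 7.05 ± 0.06 (SD, n = 4). The 3 groups did not overlap. The difference from wild type was -2.17 ± 0.11 in CTCF-A KO, 4.50-fold lower and the 6th lowest of the 11128 genes, and -3.32 ± 0.11 in CTCF-B KO, 9.95-fold lower and the lowest of all. These 2 differences chose the genes and are given without a test. The wild-type spread of SCUBE3 was wide, larger than that of 97.9% of genes, mostly through replicate 3. The difference between the knockouts was not used in the choice: SCUBE3 was 1.15 ± 0.11 higher in CTCF-A KO than in CTCF-B KO, 2.21-fold (limma adjusted p = 1.51e-06), with all 4 libraries above all 4. SCUBE1 and SCUBE2, the other members of the family, were not analysed here.

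**Figure D1:**
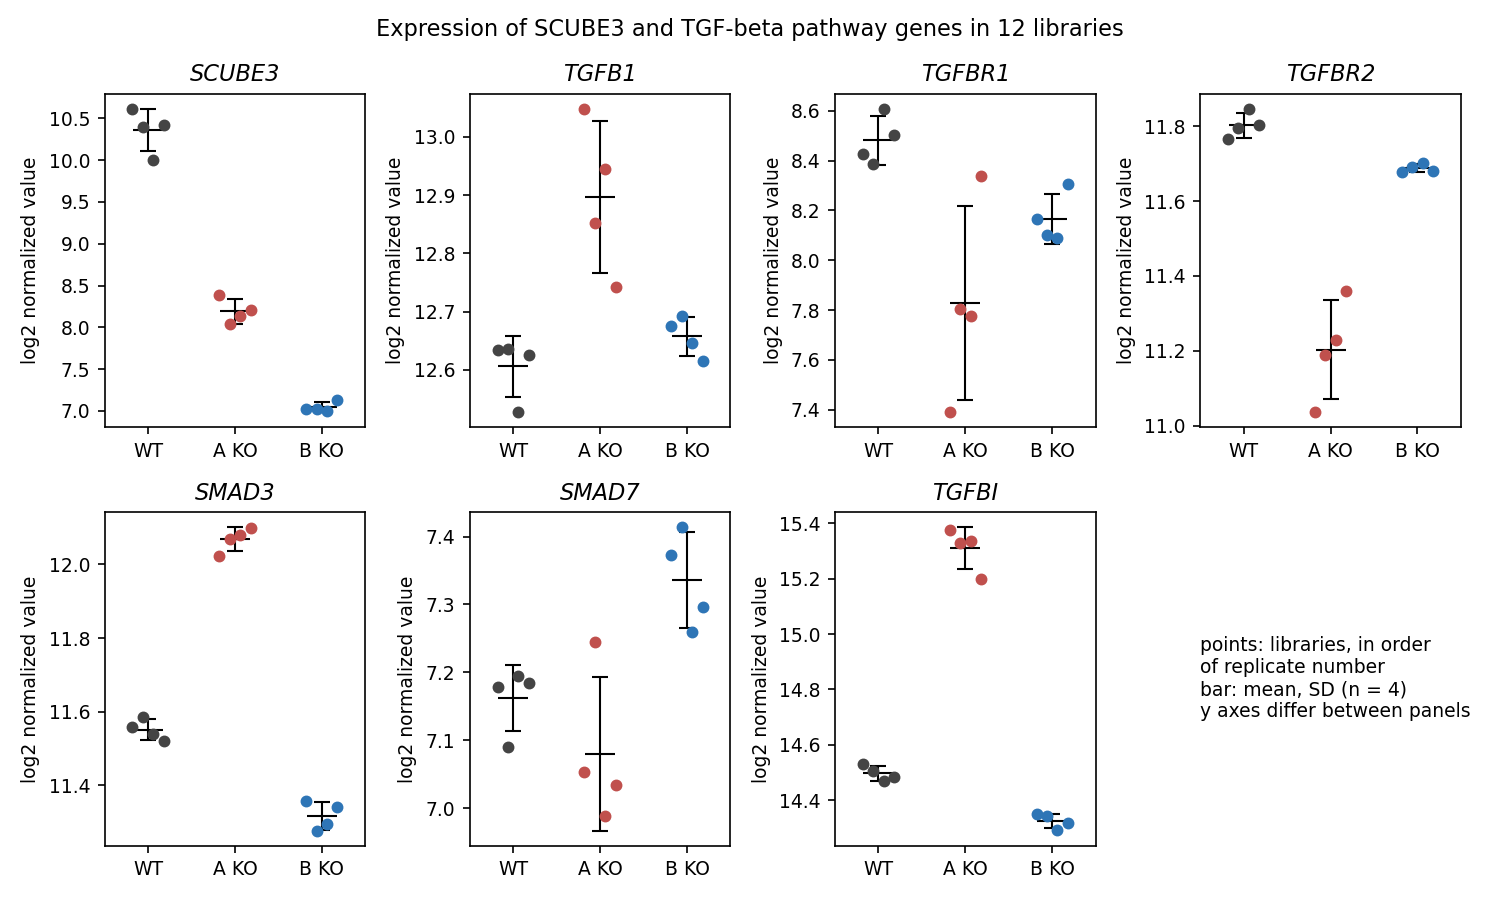
Log2 normalized value (vertical axis, scaled separately in each panel) of the 7 genes in the 4 libraries each of wild type (WT), CTCF-A KO and CTCF-B KO; points are libraries, bars the mean and SD. SCUBE3 steps down from a mean of 10.36 to 8.19 and 7.05, SMAD3 and TGFBI lie above wild type in CTCF-A KO and below it in CTCF-B KO, and the CTCF-A KO points of TGFBR1 spread from 7.39 to 8.34.

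The genes around SCUBE3 did not share its low values. Of the genes tested, 120 started within 5 Mb of it, and their median difference was 0.14 in CTCF-A KO, with 0.15 for CTCF-B KO. The lowest of them stood at -0.72 and -0.41. SCUBE3 lay below all 120 in both knockouts, but its low values chose the genes, so that rank is no finding. The closest start among genes tested belonged to the zinc finger gene ZNF76, 44.5 kb away, which differed from wild type by 0.03 ± 0.06 in CTCF-A KO (limma adjusted p = 0.667) and by 0.14 ± 0.06 in CTCF-B KO (limma adjusted p = 0.0788). ANKS1A, on the other side, was higher by 0.11 ± 0.04 and 0.14 ± 0.04 (limma adjusted p = 0.038 and 0.0173). The nuclear receptor gene PPARD was lower by 0.31 ± 0.06 in CTCF-B KO (log2 difference -0.31, limma adjusted p = 9.45e-04) and the Fanconi anaemia gene FANCE by a log2 difference of -0.19 ± 0.05 in CTCF-A KO (limma adjusted p = 0.00687) and one of -0.36 ± 0.05 in CTCF-B KO (limma adjusted p = 1.33e-04). As an alternative, a joint trend on GC content and transcript length was removed from each library, called below the GC trend removed. The neighbours' median in CTCF-A KO was then 0.021, and with CTCF-A KO replicate 4 alone it was -0.00013.

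TGFBR1, TGFBR2, SMAD3 and TGFBI likewise differed from the middle of their neighbourhoods in CTCF-A KO. TGFBR1 stood below each of its 34 neighbours, whose median was -0.08. With the GC trend removed TGFBR1 stood at -0.21 and that median at 0.05, and with replicate 4 alone they stood at -0.14 and 0.0073. Of the 23 neighbours of TGFBR2, 2 lay below it. SMAD3 stood above 48 of 53 and TGFBI above 69 of 71. TGFB1 did not stand apart: the median of its 136 neighbours was 0.24 in CTCF-A KO, next to its own 0.29. SMAD7 at -0.08 was level with the median of its 18 neighbours, also -0.08, but with the GC trend removed they stood at -0.25 and 0.09. In CTCF-B KO the 6 genes other than SCUBE3 differed from their neighbours' medians by -0.20 to 0.07.

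**Figure D2:**
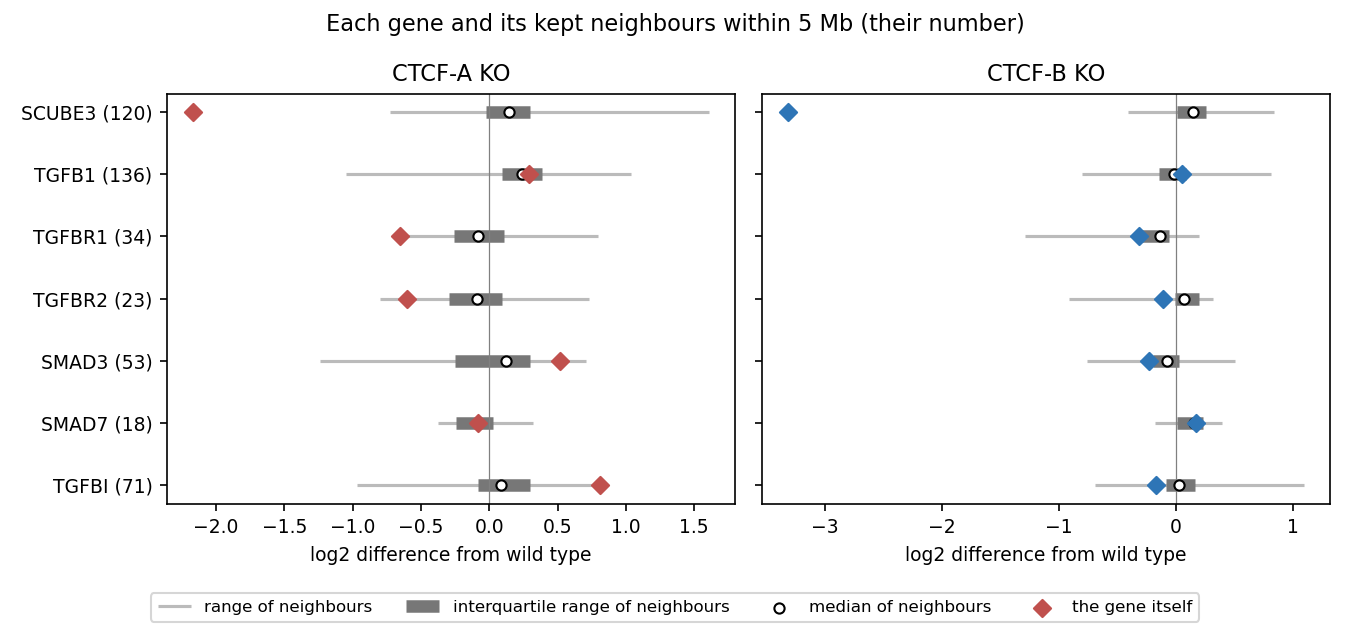
Log2 difference from wild type (horizontal axis) of each gene (diamond) and of the tested genes that start within 5 Mb of it (range, interquartile range and median; their number in brackets), for CTCF-A KO on the left and CTCF-B KO on the right. SCUBE3, whose low values chose the genes, lies outside the range of its 120 neighbours in both knockouts, at -2.17 and -3.32.

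The pattern of SCUBE3 over the 12 libraries, taken as deviations from a gene's own wild-type mean, was most like that of the neuropeptide Y receptor gene NPY1R, with a root mean square difference of 0.36. Next came ANKRD1, a cardiac ankyrin repeat protein, at 0.48, the guidance cue NTN1 at 0.53, the fatty acid desaturase SCD at 0.54 and the astrocyte filament gene GFAP at 0.61. ANKRD1 was about as low in CTCF-A KO (-2.19 ± 0.10) as SCUBE3, NPY1R and GFAP were lower (-2.58 ± 0.12 and -3.11 ± 0.07), and NTN1 and SCD were less low there (-1.54 ± 0.10 and -1.53 ± 0.09). In CTCF-B KO all 5 lay between -3.07 and -2.58. These 5 were picked for nearness to the values of SCUBE3, so their low values follow from that choice and are no finding. Nearest to SMAD3 were MYO1E, PACSIN2 and SNAI2, at 0.05 to 0.06, and nearest to TGFBI were ADAM19, MAN2A2 and TOB2, at 0.04 to 0.06. SNAI2 is also on the list of TGF-beta targets used here.

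In CTCF-A KO versus wild type, 3 of the 6 genes tested were higher (TGFB1, SMAD3 and TGFBI), 2 were lower (TGFBR1 and TGFBR2) and SMAD7 was not called; over all genes 62.9% were called, so a count of 5 of 6 is not far from the background. In CTCF-B KO versus wild type, SMAD3 and TGFBI were lower and the other 4 were not called, against 39.4% of all genes. That count of 2 became 5 when only the 8 libraries compared were fitted or when the GC trend was removed, to 5 without CTCF-A KO replicate 4 and to 4 without CTCF-A KO replicate 1. CTCF-A KO replicates enter it only through the shared estimate of spread. In CTCF-A KO versus CTCF-B KO, 4 of 7 were higher (SCUBE3, TGFB1, SMAD3 and TGFBI) and 2 lower (TGFBR2 and SMAD7), against 66% of all genes. The 2 comparisons with wild type share the same 4 wild-type libraries.

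**Figure D3:**
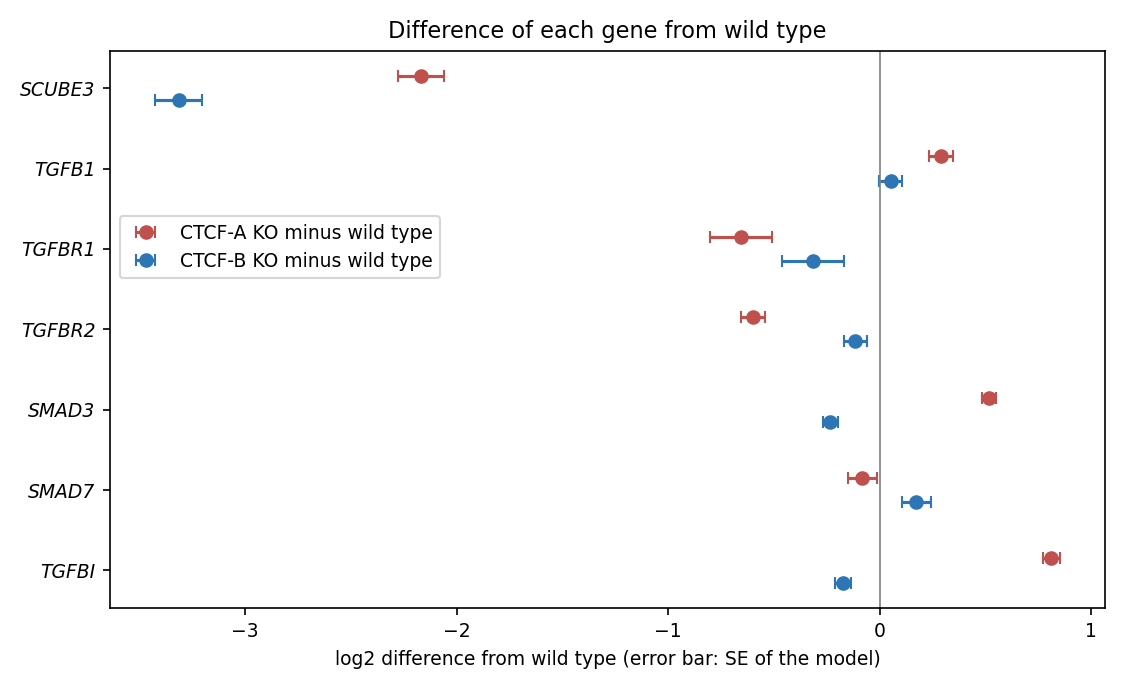
Log2 difference from wild type (horizontal axis) of the 7 genes in CTCF-A KO and CTCF-B KO; points are differences of group means and bars the standard error of the model. SCUBE3 lies far to the left in both, SMAD3 and TGFBI lie on opposite sides of 0 in the 2 knockouts, and the 2 receptors lie to the left of 0.

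TGFB1 (ENSG00000105329, chromosome 19, 41301587 to 41353911, minus strand), which encodes the founding ligand, was slightly higher in CTCF-A KO. Wild type stood at 12.63, 12.64, 12.53 and 12.63, CTCF-A KO at 13.05, 12.85, 12.95 and 12.74, and CTCF-B KO at 12.68, 12.69, 12.65 and 12.62. All CTCF-A KO libraries lay above all others, while wild type and CTCF-B KO overlapped. The log2 difference from wild type was 0.29 ± 0.06 in CTCF-A KO (limma adjusted p = 7.29e-04) and only 0.05 ± 0.06 in CTCF-B KO (limma adjusted p = 0.509, 95% interval -0.07 to 0.17). The latter was called after quantile normalization, at 0.14 (limma adjusted p = 0.0112), and with the GC trend removed, at 0.07 (limma adjusted p = 0.0131). TGFB1 has a transcript of 63.5% GC, the highest of the 7, and its CTCF-A KO difference shrank to 0.10 with the GC trend removed and to 0.14 with replicate 4 alone. Its difference between the knockouts, 0.24 ± 0.06 (limma adjusted p = 0.0023), was 0.03 with the trend removed (limma adjusted p = 0.313).

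TGFBR1 (ENSG00000106799, chromosome 9, 99104038 to 99154192, plus strand), the type I receptor, had its highest values in wild type. Wild type stood at 8.43, 8.39, 8.61 and 8.50, CTCF-A KO at 7.39, 7.80, 7.77 and 8.34, and CTCF-B KO at 8.17, 8.10, 8.09 and 8.31. All knockout libraries lay below all wild-type libraries, and the 2 knockouts overlapped because CTCF-A KO replicate 4 lay above every CTCF-B KO library. TGFBR1 fell by 0.66 ± 0.15 in CTCF-A KO (log2 difference -0.66, limma adjusted p = 0.002). The difference was -0.21 with the GC trend removed (limma adjusted p = 0.00283) and -0.14 with replicate 4 as the sole CTCF-A KO library (limma adjusted p = 0.26). Its transcript has the lowest GC content of the 7, 39%. In CTCF-B KO the log2 difference was -0.32 ± 0.15 (limma adjusted p = 0.107), and it was called when only the 8 libraries of these groups were fitted (limma adjusted p = 6.74e-04). Between the knockouts TGFBR1 differed by -0.34 ± 0.15 (limma adjusted p = 0.0568, 95% interval -0.66 to -0.02), and by -0.51 without CTCF-A KO replicate 4 (limma adjusted p = 2.47e-04). The direction turned with the GC trend removed, to 0.09, and with replicate 4 alone, to 0.17, so no direction is given for it.

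TGFBR2 (ENSG00000163513, chromosome 3, 30606502 to 30694142, plus strand), the type II receptor that SCUBE3 is described to bind, fell in CTCF-A KO. Wild type stood at 11.76, 11.79, 11.85 and 11.80, CTCF-A KO at 11.04, 11.19, 11.23 and 11.36, and CTCF-B KO at 11.68, 11.69, 11.70 and 11.68. The 3 groups did not overlap, and the order was wild type, CTCF-B KO, CTCF-A KO. The log2 difference from wild type was -0.60 ± 0.06 in CTCF-A KO (limma adjusted p = 1.77e-06), and it was -0.54 with the GC trend removed and -0.44 with replicate 4 alone. In CTCF-B KO it was -0.12 ± 0.06 (limma adjusted p = 0.119, 95% interval -0.24 to 0.01), and it was called when only these 8 libraries were fitted (limma adjusted p = 0.00131). Between the knockouts the difference was -0.48 ± 0.06 (limma adjusted p = 7.61e-06).

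SMAD3 (ENSG00000166949, chromosome 15, 67063763 to 67195195, plus strand), the receptor-regulated SMAD that carries the signal to the nucleus, rose in CTCF-A KO and fell in CTCF-B KO. Wild type stood at 11.56, 11.59, 11.54 and 11.52, CTCF-A KO at 12.02, 12.07, 12.08 and 12.10, and CTCF-B KO at 11.36, 11.28, 11.29 and 11.34. The groups were narrow and did not overlap, and CTCF-A KO replicate 4 lay with the other 3. The log2 difference from wild type was 0.52 ± 0.04 in CTCF-A KO (limma adjusted p = 1.14e-07) and was -0.23 ± 0.04 in CTCF-B KO (limma adjusted p = 1.82e-04). With the GC trend removed they were 0.52 and -0.16. The knockouts differed by 0.75 ± 0.04 (limma adjusted p = 2.38e-09).

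SMAD7 (ENSG00000101665, chromosome 18, 48919853 to 48952052, minus strand), the inhibitory SMAD, differed little from wild type. Wild type stood at 7.18, 7.09, 7.19 and 7.18, CTCF-A KO at 7.05, 7.24, 6.99 and 7.03, and CTCF-B KO at 7.37, 7.41, 7.26 and 7.30. CTCF-A KO overlapped wild type through its replicate 2, and all CTCF-B KO libraries lay above all others. The log2 difference was -0.08 ± 0.07 in CTCF-A KO (limma adjusted p = 0.299, 95% interval -0.23 to 0.06) and was 0.17 ± 0.07 in CTCF-B KO (limma adjusted p = 0.0541, 95% interval 0.03 to 0.32). Both were called with the GC trend removed, at -0.25 (limma adjusted p = 0.0112) and 0.25 (limma adjusted p = 0.012). Between the knockouts SMAD7 was lower in CTCF-A KO by a log2 difference of -0.26 ± 0.07 (limma adjusted p = 0.00442).

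TGFBI (ENSG00000120708, chromosome 5, 136028895 to 136063818, plus strand), the matrix protein and pathway target, showed the largest rise of the 7 in CTCF-A KO. Wild type stood at 14.53, 14.51, 14.47 and 14.48, CTCF-A KO at 15.38, 15.33, 15.34 and 15.20, and CTCF-B KO at 14.35, 14.34, 14.29 and 14.32. The groups did not overlap, with CTCF-A KO highest and CTCF-B KO lowest. TGFBI rose by 0.81 ± 0.04 in CTCF-A KO (limma adjusted p = 4.86e-09) and fell by 0.17 ± 0.04 in CTCF-B KO (log2 difference -0.17, limma adjusted p = 0.00288). The CTCF-B KO difference was -0.04 after quantile normalization (limma adjusted p = 0.266). The knockouts differed by 0.99 ± 0.04 (limma adjusted p = 5.28e-10).

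The pathway around these genes was read from 10 lists with 172 genes, of which 102 had a row and passed the filter. Leaving SCUBE3 out, 40 of 101 were higher and 35 lower in CTCF-A KO, beside 31.8% and 31.1% of all genes. In CTCF-B KO 23 were higher and 38 lower, beside 18.9% and 20.6% of all genes. In CTCF-A KO versus CTCF-B KO 43 were higher and 35 lower, beside 33.4% and 32.6% of all genes. With CTCF-A KO replicate 4 as its only library, the number lower in CTCF-A KO was 22. The median log2 difference over the 101 was -0.04 in CTCF-A KO, with -0.13 for CTCF-B KO; over all genes the medians were 0.0049 and 0.0016. With the GC trend removed the medians over the 101 were 0.02 and -0.05, and 34 were higher and 40 lower in CTCF-B KO. Several genes stand on more than 1 list.

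**Figure D4:**
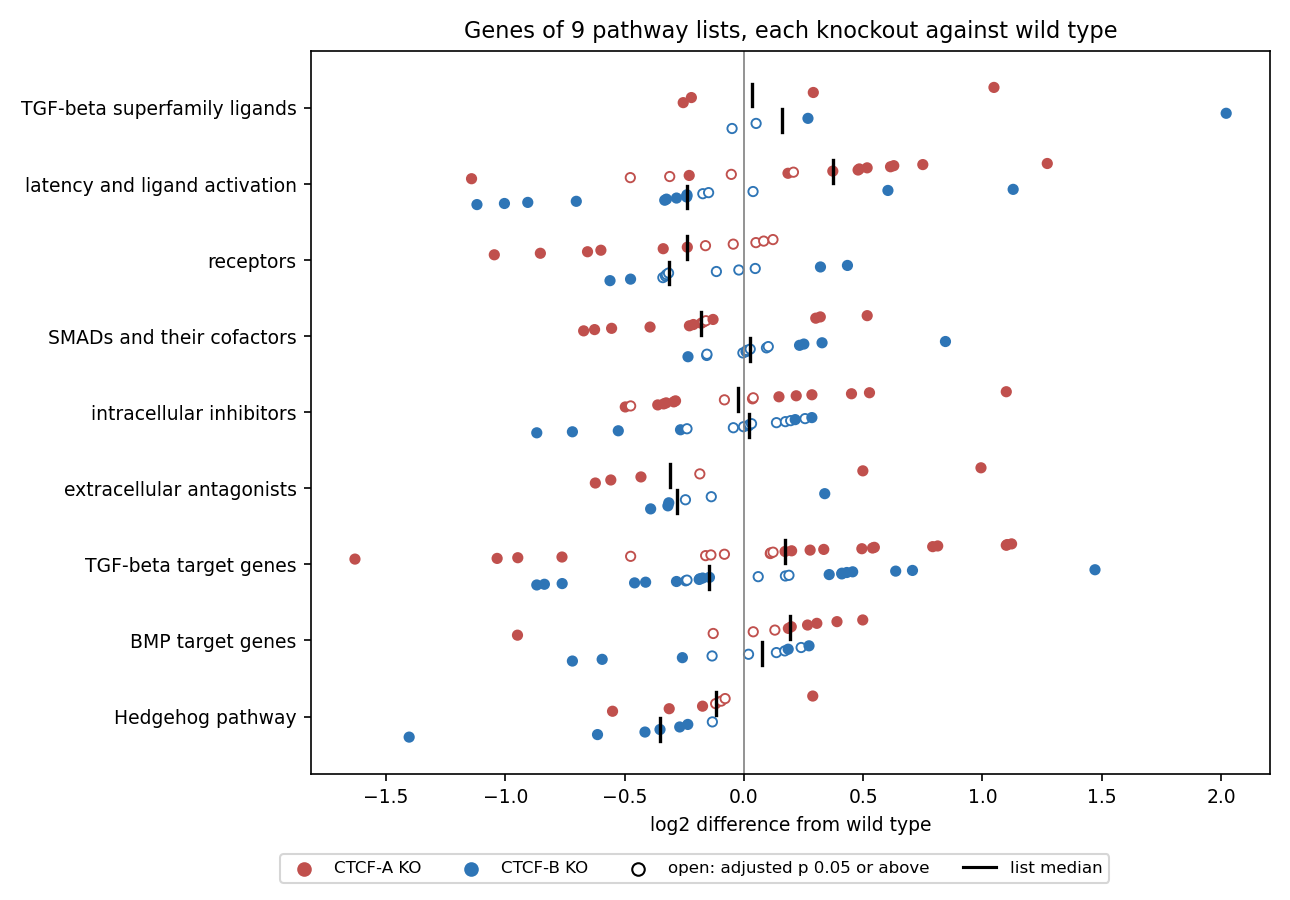
Log2 difference from wild type (horizontal axis) of each tested gene of 9 lists, in CTCF-A KO and CTCF-B KO; filled points were called at an adjusted p under 0.05, open points were not, and black ticks are list medians. The latency and ligand activation list has its medians on opposite sides of 0, at 0.37 and -0.24, and the receptor list has both below 0.

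Among ligands of the superfamily 4 of 24 listed genes had a row. GDF15, a stress-induced cytokine, rose in both knockouts, by 1.05 ± 0.09 in CTCF-A KO (limma adjusted p = 7.4e-07) and by 2.02 ± 0.09 in CTCF-B KO (limma adjusted p = 2.65e-09). Its wild-type libraries lay between 8.74 and 8.99, CTCF-A KO between 9.74 and 10.14 and CTCF-B KO between 10.78 and 11.02, without overlap. TGFB3, the third TGF-beta, differed by -0.22 ± 0.06 in CTCF-A KO (limma adjusted p = 0.00968) and by -0.05 ± 0.06 in CTCF-B KO (limma adjusted p = 0.578). The first was not called after either scaling (-0.14 with a limma adjusted p of 0.111, and -0.13 with 0.149). GDF11 fell in CTCF-A KO (-0.25 ± 0.06, limma adjusted p = 0.00284) and rose in CTCF-B KO (0.27 ± 0.06, limma adjusted p = 0.00324). The GDF11 fall was -0.09 with the GC trend removed (limma adjusted p = 0.309).

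The genes that hold TGF-beta latent or release it were mostly higher in CTCF-A KO and mostly lower in CTCF-B KO. Of 15 tested, CTCF-A KO had 9 higher and 2 lower, with a median of 0.37, and 2 were higher and 10 lower in CTCF-B KO, with a median of -0.24. Over all genes 31.8% were higher and 31.1% lower in the first comparison, and 18.9% and 20.6% in the second. With the GC trend removed the counts were 9 and 2, then 2 and 9. The 2 lower in CTCF-A KO became 4 with a replicate block or without CTCF-A KO replicate 4, and 1 with replicate 4 alone. MMP14, a membrane protease, rose by 1.27 ± 0.09 in CTCF-A KO (limma adjusted p = 1.65e-07) and by 0.60 ± 0.09 in CTCF-B KO (limma adjusted p = 1.83e-04). LTBP3, a latent TGF-beta binding protein, stood between 12.03 and 12.18 in wild type, 12.78 and 13.01 in CTCF-A KO, and 11.75 and 11.83 in CTCF-B KO. It rose in CTCF-A KO (0.75 ± 0.05, limma adjusted p = 1.74e-07) and fell in CTCF-B KO (-0.32 ± 0.05, limma adjusted p = 3.94e-04). FURIN, the convertase that cleaves the TGF-beta precursor, moved the same way, by 0.61 ± 0.05 and -0.28 ± 0.05 (limma adjusted p = 3.54e-07 and 4.37e-04). LTBP1 rose in both, by 0.37 ± 0.04 and 1.13 ± 0.04 (limma adjusted p = 6.01e-06 and 3.33e-10). The CTCF-B KO falls were led by THBS1, the activator thrombospondin 1, at -1.12 ± 0.05 (limma adjusted p = 4.84e-09), and by the microfibril gene FBN1, at -1.0 ± 0.10 (limma adjusted p = 3.47e-06). THBS1 also passed the test in CTCF-A KO at -0.23 ± 0.05 (limma adjusted p = 0.00229), and stood at 0.015 there with the GC trend removed. Between the knockouts 10 of the 15 were higher in CTCF-A KO and 1 lower, beside 33.4% and 32.6% of all genes, and 3 were lower without CTCF-A KO replicate 4.

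Of 11 receptor genes tested, 6 were lower and none higher in CTCF-A KO, beside 31.1% and 31.8% of all genes, with a median of -0.24; with the GC trend removed 5 were lower and 2 higher. With replicate 4 standing alone for CTCF-A KO 3 were lower and 1 higher. The BMP receptors BMPR1A and BMPR2 fell by 1.05 ± 0.13 and 0.85 ± 0.18 (log2 differences -1.05 and -0.85, limma adjusted p = 2.74e-05 and 0.00115), and with replicate 4 alone stood at -0.54 and -0.21, the latter not called (limma adjusted p = 0.214). In CTCF-B KO 2 were higher and 2 lower, beside 18.9% and 20.6% of all genes. With only these 8 libraries fitted, or without CTCF-A KO replicate 4, 7 were lower, and 6 without CTCF-A KO replicate 1 or with the GC trend removed. ENG, the co-receptor endoglin, fell in both, by 0.24 ± 0.07 and 0.56 ± 0.07 (log2 differences -0.24 and -0.56, limma adjusted p = 0.0132 and 5.96e-05), but with libraries shifted to the same median its CTCF-A KO difference was -0.15 (limma adjusted p = 0.134). In CTCF-B KO the receptor NEO1 fell (-0.48 ± 0.07, limma adjusted p = 2.43e-04) and its ligand gene RGMB, a BMP co-receptor, rose (0.43 ± 0.07, limma adjusted p = 2.86e-04).

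Of 13 SMADs and cofactors, 3 were higher and 8 lower in CTCF-A KO, beside 31.8% and 31.1% of all genes; removal of the GC trend gave 5 higher and 6 lower, and with replicate 4 alone 2 were lower. With libraries shifted to the same median 5 were lower. In CTCF-B KO 4 were higher and 1, SMAD3, lower, beside 18.9% and 20.6% of all genes. The count lower became 3 with only these 8 libraries fitted and 2 without CTCF-A KO replicate 1 or replicate 4. SMAD1, a SMAD of the BMP branch, moved opposite to SMAD3 in both knockouts, by -0.63 ± 0.07 in CTCF-A KO (limma adjusted p = 5.25e-06) and by 0.33 ± 0.07 in CTCF-B KO (limma adjusted p = 0.00157). SMAD9, also of the BMP branch, rose in CTCF-B KO by 0.85 ± 0.10 (limma adjusted p = 3.15e-05) and in CTCF-A KO stood at -0.17 ± 0.10 (limma adjusted p = 0.164). SMAD2, the partner of SMAD3, and the common SMAD4 were called lower in CTCF-A KO (-0.21 ± 0.06 and -0.23 ± 0.08, limma adjusted p = 0.00648 and 0.018) and stood at 0.21 and 0.20 with the GC trend removed; both were picked after their values were seen. The acetyltransferase gene CREBBP and the deubiquitinase gene USP11 rose in CTCF-A KO (0.30 ± 0.04 and 0.32 ± 0.06, limma adjusted p = 7.06e-05 and 5.52e-04). USP11 was higher in CTCF-B KO as well, at 11.49 to 11.52 against 11.19 to 11.31 in wild type. STRAP, a receptor-associated protein, rose in CTCF-B KO (0.25 ± 0.04, limma adjusted p = 5.71e-04).

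Of 16 intracellular inhibitors, 6 were higher and 6 lower in CTCF-A KO, and 2 higher and 4 lower in CTCF-B KO. The shares over all genes were 31.8% and 31.1%, then 18.9% and 20.6%. In CTCF-A KO 3 were lower with the GC trend removed and 2 with replicate 4 alone. In CTCF-B KO 7 were higher and 5 lower with the trend removed, and the count higher ran from 1 to 5 on leaving out 1 library, with 5 without CTCF-A KO replicate 4 and 4 without CTCF-A KO replicate 1. PMEPA1, a membrane protein that is induced by TGF-beta and sequesters receptor SMADs, showed the widest separation of the knockouts on this list. Its libraries stood at 10.47, 10.39, 10.30 and 10.42 in wild type, at 11.52, 11.55, 11.49 and 11.44 in CTCF-A KO, and at 9.51, 9.55, 9.51 and 9.54 in CTCF-B KO. It rose in CTCF-A KO (1.10 ± 0.04, limma adjusted p = 1.93e-09) and fell in CTCF-B KO (-0.87 ± 0.04, limma adjusted p = 1.06e-08). SMAD6, the inhibitory SMAD of the BMP branch, fell in CTCF-B KO (-0.72 ± 0.06, limma adjusted p = 1.42e-06) and stood at 0.04 ± 0.06 in CTCF-A KO (limma adjusted p = 0.599). Of the homeodomain repressors, TGIF1 rose in CTCF-A KO (0.45 ± 0.05, limma adjusted p = 4.7e-06) and TGIF2 fell in CTCF-B KO (-0.53 ± 0.05, limma adjusted p = 7.94e-06). TGIF2 was lower in CTCF-A KO as well, at 9.13 to 9.33 against 9.42 to 9.52 in wild type. SKI, a SMAD corepressor, fell in CTCF-A KO (-0.36 ± 0.04, limma adjusted p = 5.05e-06).

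Of 6 extracellular antagonists tested, VASN, a TGF-beta trap at the cell surface, rose in CTCF-A KO (0.99 ± 0.10, limma adjusted p = 4.58e-06) and fell in CTCF-B KO (-0.32 ± 0.10, limma adjusted p = 0.026). The VASN fall was not called after either scaling or without any one of wild-type replicates 1, 2 and 4 and CTCF-B KO replicates 1 to 3 (largest limma adjusted p = 0.0775). FSTL1 moved the opposite way, by -0.43 ± 0.05 and 0.34 ± 0.05 (limma adjusted p = 7.33e-06 and 9.69e-05). CRIM1 fell in both, by 0.62 ± 0.07 and 0.31 ± 0.07 (log2 differences -0.62 and -0.31, limma adjusted p = 1.33e-05 and 0.00401). NBL1 rose by 0.50 ± 0.10 in CTCF-A KO and fell by 0.39 ± 0.10 in CTCF-B KO (log2 differences 0.50 and -0.39, limma adjusted p = 0.00129 and 0.00976); its rise was 0.21 with replicate 4 alone (limma adjusted p = 0.215).

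The genes listed as TGF-beta targets did not move as a block. Of 23 tested, CTCF-A KO had 12 higher and 4 lower, with a median of 0.17, and 8 were higher and 11 lower in CTCF-B KO, with a median of -0.14. The shares over all genes were 31.8% and 31.1%, then 18.9% and 20.6%. With the GC trend removed 7 were lower in CTCF-A KO, and after quantile normalization 7 were lower in CTCF-B KO. FN1, which encodes the matrix protein fibronectin, had a mean of 11.95 ± 0.05 (SD, n = 4) in wild type, one of 13.05 ± 0.09 in CTCF-A KO and one of 11.67 ± 0.03 in CTCF-B KO, without overlap. It rose in CTCF-A KO (1.10 ± 0.05, limma adjusted p = 2.35e-09) and fell in CTCF-B KO (-0.28 ± 0.05, limma adjusted p = 3.74e-04), the latter not called with the GC trend removed (-0.21, limma adjusted p = 0.0754). The tropomyosin gene TPM1 moved the same way, by 0.54 ± 0.04 and -0.76 ± 0.04 (limma adjusted p = 1.65e-07 and 9.88e-09). The collagen gene COL1A1 fell in both, by -1.03 ± 0.05 and -0.41 ± 0.05 on the log2 scale (limma adjusted p = 9.14e-09 and 4.94e-05). LOX, the enzyme that cross-links collagen, rose in CTCF-B KO (1.47 ± 0.07, limma adjusted p = 5.57e-09) and in CTCF-A KO stood at 0.12 ± 0.07 (limma adjusted p = 0.146). The growth factor gene CCN2, picked after its values were seen, fell in CTCF-A KO (-0.95 ± 0.07, limma adjusted p = 1.34e-07).

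All 10 listed BMP targets had a row, and CTCF-A KO had 6 higher and 1 lower, beside 31.8% and 31.1% of all genes. With the GC trend removed 2 were higher and 2 lower, and with replicate 4 alone 1 was higher. ID4, a dominant-negative helix-loop-helix protein, fell in CTCF-A KO (-0.95 ± 0.05, limma adjusted p = 2.4e-08) and rose in CTCF-B KO (0.27 ± 0.05, limma adjusted p = 0.00141). ID2 fell in CTCF-B KO (-0.59 ± 0.05, limma adjusted p = 7.4e-07), and the homeobox gene MSX2 rose in CTCF-A KO (0.50 ± 0.06, limma adjusted p = 8.25e-06). SCUBE proteins are also known for their part in Hedgehog release, and of 7 genes of that pathway tested, 6 were lower and none higher in CTCF-B KO, beside 20.6% and 18.9% of all genes, with a median of -0.35. In CTCF-A KO 3 were lower and 1 higher, beside 31.1% and 31.8%; without its replicate 4 there were 5 lower, and with replicate 4 alone 0 higher. The co-receptor gene CDON fell in both, by 0.55 ± 0.07 and 1.40 ± 0.07 (log2 differences -0.55 and -1.40, limma adjusted p = 1.77e-05 and 5.23e-09). SMO, which transmits the Hedgehog signal, fell in CTCF-B KO (-0.61 ± 0.08, limma adjusted p = 7.07e-05), as did the transcription factor gene GLI3 (-0.41 ± 0.05, limma adjusted p = 6.19e-05).

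**Figure D5:**
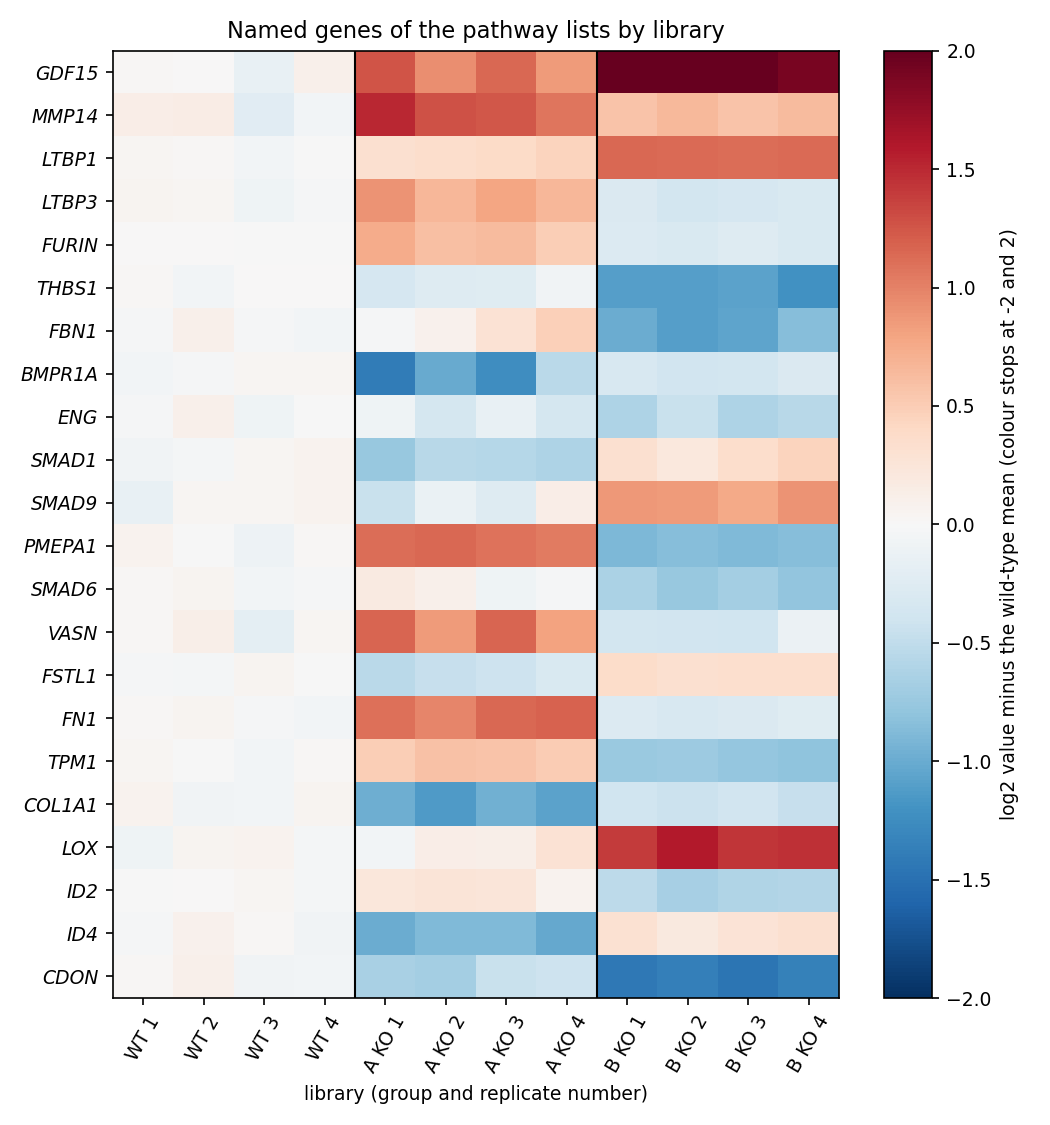
Log2 value minus the wild-type mean of the gene (colour, red above and blue below, ending at 2 and -2) for named genes of the lists (rows) in the 12 libraries (columns). PMEPA1, FN1, LTBP3 and TPM1 are red in the 4 CTCF-A KO libraries and blue in the 4 CTCF-B KO libraries, GDF15 is red in both, and BMPR1A is palest in CTCF-A KO replicate 4 among the CTCF-A KO libraries.

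CTCF-A KO libraries differed among themselves more than those of the other groups. Any 2 CTCF-A KO replicates differed per gene by a median of 0.08 to 0.29, any 2 wild-type replicates by 0.05 to 0.08 and any 2 CTCF-B KO replicates by 0.06 to 0.08. Relative to wild type, genes of high GC content lay above genes of low GC content by 0.91, 0.45 and 0.64 in CTCF-A KO replicates 1 to 3 and by 0.09 in replicate 4, against -0.12 to 0.08 in the other groups. TGFB1, of high GC content, and TGFBR1, of low GC content, moved with this trend across the CTCF-A KO libraries, whereas with replicate 4 alone the CTCF-A KO difference was -2.15 for SCUBE3, 0.55 for SMAD3, 0.70 for TGFBI and -0.44 for TGFBR2. What produced the trend was not tested. Of 12 astrocyte and glioma markers 9 had a row, VIM, NES and GFAP among them, and the log2 of their summed linear values lay at 17.37 to 17.55 in wild type, 16.84 to 17.01 in CTCF-A KO, then 16.74 to 16.79 for CTCF-B KO. S100B, AQP4 and ALDH1L1 had none. Of 8 fibroblast markers 3 had a row (COL1A1, COL1A2 and THY1), with sums of 15.13 to 15.25, 15.15 to 15.37 and 14.87 to 14.95; COL1A1 and COL1A2 are also on the target list. Of 8 neuron markers 3 had a row (MAP2, SNAP25 and NEFL), with sums of 15.24 to 15.35, 15.72 to 15.92 and 13.69 to 13.87. For oligodendrocytes 1 of 8 (CNP, 12.41 to 12.94 over the libraries), for endothelium 1 of 8 (KDR) and for microglia and macrophages 0 of 8 had a row. The part of these markers in the results above was not tested.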

How the data were processed

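RNA sequencing of 12 libraries (3 groups of 4) was used. Per the labels' protocols, libraries were made from total RNA with a NEBNext Ultra kit and sequenced as read pairs. The submitters' processing notes name Trimmomatic 0.33, featureCounts, DESeq2 and the build GRCh38.p7; the aligner, annotation, strand setting and filter are not given in the sources used here. The authors deposited 1 table of normalized values that are already on a log2 scale, from 1.34 to 17.97. Without counts the depth of each library is unknown, so no counting interval can be given. Without the strand setting, reads of overlapping genes may be mixed.

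Genes with a value of at least 10 on the linear scale in at least 4 libraries were kept (11128 of 11178). One model of the 3 groups over 12 libraries was fitted with a trended variance (limma 3.58.1, R 4.3.3), tested on simulated data first. Intervals are 95% intervals of that model. Symbols came from the table, which has none for 762 rows, and positions from GENCODE release 29 (GRCh38), which held 11151 of its identifiers. Promoters came from the RefSeq table (GRCh38.p14), in which SCUBE3 had no entry. GC content and length, known for 99.7% of kept genes, were taken from the longest transcript, and their trend was removed from each library with natural splines (5 and 4 degrees of freedom) as an alternative. Other alternatives were no filter, an offset of 10, 2 scalings, an untrended variance, fitting only the 8 libraries compared, the replicate number as a block, CTCF-A KO replicate 4 alone, and leaving out each library. Named were the 7 genes, and from each list and comparison up to 3 further called genes of smallest adjusted p without overlap between groups, plus the 5 genes nearest in pattern to SCUBE3 and 3 to each other gene. The genes and lists were chosen with earlier results of these data known, so no list was tested as a list.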

Additional observations from a re-analysis of the deposited data

Results flagged for a closer look

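SMAD3 and TGFBI differed from wild type in opposite directions in the 2 knockouts. All CTCF-A KO libraries lay above all wild-type libraries, and all CTCF-B KO libraries lay below them. Other listed genes did the same, PMEPA1, FN1, TPM1, LTBP3 and FURIN among them, so the pattern is not particular to SMAD3 and TGFBI. The share of all 11128 genes with this pattern was not counted. Against wild type, 62.9% of them were called for CTCF-A KO and 39.4% for CTCF-B KO. The difference between the effects was 0.75 for SMAD3 and 0.99 for TGFBI, and since both effects share wild type it equals CTCF-A KO minus CTCF-B KO, tested in the report.

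Among 21 sets of 4 libraries (7 genes in 3 groups), 2 had a library apart from the other 3 by Dixon's criterion, which chance alone meets in about 1 set in 20. Wild-type replicate 3 had a TGFB1 value of 12.53 against 12.63 to 12.64 in the others. Wild-type replicate 2 had a SMAD7 value of 7.09 against 7.18 to 7.19.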

How the results depend on the processing

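Each result was recomputed under 22 alternatives. Of the values of the 7 genes, 431 kept their side of the threshold, 25 passed it newly, 6 no longer passed it and none that was called changed direction. A value that was not called could change direction and still count among the 431. TGFBR1 between the knockouts did so, from -0.34 to 0.09 with the GC and length trend removed and to 0.17 with replicate 4 alone. The 431 include SCUBE3 against wild type, whose differences chose the genes and are no test. The number of the 6 genes called in CTCF-B KO, 2, became 5 with only the 8 libraries fitted, with the GC and length trend removed (with or without a replicate block) and with replicate 4 standing alone for CTCF-A KO; leaving out each library gave 2 to 5. In those fits TGFBR1, TGFBR2 or SMAD7, and TGFB1 with the trend removed (0.07, limma adjusted p = 0.0131), were added; fewer CTCF-A KO libraries enter the spread in some of them, and otherwise the cause was not tested. Over all genes the count in CTCF-B KO, 4389, became 6601 with 8 libraries and 6604 with replicate 4 alone, and that in CTCF-A KO, 7002, became 4654 with replicate 4 alone, where a single library is assumed to vary like the others. The pathway genes lower in CTCF-A KO were 22 in that fit. Leaving out 1 library gave 5 genes throughout in CTCF-A KO and 6 to 7 between the knockouts. The median of the genes near SCUBE3 in CTCF-A KO was 0.23 with libraries shifted to the same median, 0.021 with the trend removed and -0.00013 with replicate 4 alone; in CTCF-B KO it was 0.18 after quantile normalization and 0.17 with the trend removed. Between the knockouts it was -0.10 with the trend removed and -0.14 with replicate 4 alone. Of the called genes that the rule named, these changed sign with the trend removed: THBS1 in CTCF-A KO (0.015), CREBBP and USP11 between the knockouts (-0.0074 and -0.10) and SKI in CTCF-B KO (0.13). SMAD2 and SMAD4, picked afterwards, changed sign with the trend removed in CTCF-A KO (0.21 and 0.20). BMPR2 between the knockouts stood at 0.12 with replicate 4 alone. Scaling moved the median of all genes by at most 0.09. Depth is unknown and sets no stated limit.

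The replicate numbers gave no clear pairing of the libraries. Deviations of same-numbered libraries correlated at -0.32 to 0.43 over 12 pairs, those of different numbers at -0.51 to 0.50, and 2 libraries were closest to their own number. The pairs of replicate 1 correlated at 0.38, 0.13 and 0.35, those of replicate 3 at -0.32, 0.12 and -0.12. The deviations also hold the GC trend, so this check does not settle whether libraries were paired. With a replicate block the genes called numbered 5, 2 and 7 in the 3 comparisons, TGFBR1 between the knockouts being added (-0.34, limma adjusted p = 0.0312). That difference was 0.09 with the trend removed and 0.17 with replicate 4 alone, the opposite direction.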
